A study of Mus musculus with 21 samples.

Results

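Knockdown of TMEM38A was set directly against knockdown of TMEM214 in C2C12 myotubes (MTs), as 3 arrays against 3 arrays, 6 of the 21 in the series. The 6 were taken by the shRNA and the day in their titles, with no measured value used in the choice. C2C12 is a mouse myoblast line whose proliferating myoblasts (MBs) stop dividing and fuse into multinucleated MTs when serum is lowered. RNA was measured on Illumina whole-genome mouse bead arrays.

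TMEM38A KD MTs came from MBs transduced with lentivirus encoding an shRNA against TMEM38A, and TMEM214 KD MTs from MBs transduced in the same way with an shRNA against TMEM214. Both lines, and the control shRNA, NET39 KD and WFS1 KD lines of the series, were selected in puromycin, at 1 µg/ml by the labels, though the methods give another dose. They were then held in 2% horse serum up to day 6, with 1 µM tetrodotoxin to stop contraction. The untransduced MTs had the serum and the tetrodotoxin but no virus, and the untransduced MBs were taken at day 0. MTs were freed from the plate by partial trypsinisation, a step meant to leave mononucleated cells behind. There was 1 line per shRNA, so the loss of a target and any other effect of its shRNA or its line cannot be told apart, and KD here means the line. In these bulk samples fewer cells of a type and less RNA per cell cannot be told apart either.

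TMEM38A and TMEM214 are nuclear envelope transmembrane proteins (NETs), which span the membranes around the nucleus and, in muscle, have been linked to the placing of genes and chromosomes at the nuclear edge. TMEM38A, also called TRIC-A, is a cation channel of the sarcoplasmic reticulum and the nuclear membrane that balances charge while calcium leaves the reticulum. TMEM214 is a protein of the endoplasmic reticulum and nuclear envelope, known in human cells for holding procaspase 4 at the reticulum. A MT builds sarcomeres, in which thick filaments of myosin pull on thin filaments of actin, tropomyosin and troponin between Z-discs. Most of these proteins exist in slow or cardiac and fast forms that mark fibre type.

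Mean scanner intensity was 331 to 364 on the TMEM38A KD arrays and 414 to 447 on the TMEM214 KD arrays, which did not overlap, and 374 to 533 on the control shRNA arrays. After the quantile normalization of the authors the median log2 signal was 6.59 on every array. Between 47.7% and 48.4% of probes lay above background on the 6 arrays, with the background level at 6.597 to 6.601. No gene lay more than 1 log2 unit from the mean of its other replicates on any of the 6 arrays, whereas 411 genes did so on MB replicate 1. That array enters the shared estimate of the spread but neither mean of this comparison.

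The targeted genes checked the labels. Tmem38a had log2 signals of 6.92, 6.94 and 6.86 in TMEM38A KD MTs, against 10.08, 10.12 and 10.38 in TMEM214 KD MTs, and 10.76 on average in control shRNA MTs. It was 9.77-fold lower in TMEM38A KD MTs (log2 ratio −3.29, SE 0.0976, adjusted p = 2.74e-13) and averaged 6.98 in untransduced MBs. Tmem214 had 8.13, 8.16 and 8.16 in TMEM38A KD MTs, against 7.23, 7.20 and 7.32 in TMEM214 KD MTs, and 8.19 in control shRNA MTs. Each targeted gene was thus lower in the line named for it, with no overlap between the groups of 3. Tmem214 was 1.87-fold higher in TMEM38A KD MTs (log2 ratio 0.90, SE 0.0758, adjusted p = 9.41e-08), and its 2 dimmer probes gave log2 ratios of 0.31 and 0.30. Against control shRNA, Tmem38a differed by −3.86 in TMEM38A KD MTs and −0.57 in TMEM214 KD MTs, and Tmem214 by −0.04 in TMEM38A KD MTs and −0.94 in TMEM214 KD MTs, 2 comparisons that share the control arrays. Tmem38a therefore passed the test against control in both lines, and Tmem214 only in its own.

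Tmem38b encodes TRIC-B, the second channel of the TRIC family. Its log2 signals were 12.10, 12.11 and 12.24 in TMEM38A KD MTs, against 11.38, 11.33 and 11.36 in TMEM214 KD MTs, with no overlap (log2 ratio 0.80, SE 0.157, adjusted p = 0.000899), and a second probe gave 0.81. Against control it differed by 0.21 in TMEM38A KD MTs and −0.58 in TMEM214 KD MTs, of which only the value of TMEM214 KD MTs passed. Plpp7, the gene of the muscle-specific nuclear envelope protein NET39, had 8.68, 8.64 and 8.71 in TMEM38A KD MTs, against 7.60, 7.45 and 7.55 in TMEM214 KD MTs (log2 ratio 1.14, SE 0.107, adjusted p = 3.77e-07). Against control Plpp7 differed by 0.17 in TMEM38A KD MTs, which did not pass, and by −0.96 in TMEM214 KD MTs, which did. Wfs1, which encodes a reticulum membrane protein that the study depleted in another line, had 9.47, 9.75 and 9.75 in TMEM38A KD MTs, against 9.20, 9.21 and 9.56 in TMEM214 KD MTs, a difference that did not pass (log2 ratio 0.34, SE 0.169, adjusted p = 0.17) and was −0.068 with median scaling. Against control Wfs1 was called lower in both lines, by −0.70 in TMEM38A KD MTs and −1.03 in TMEM214 KD MTs.

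**Figure D1:**
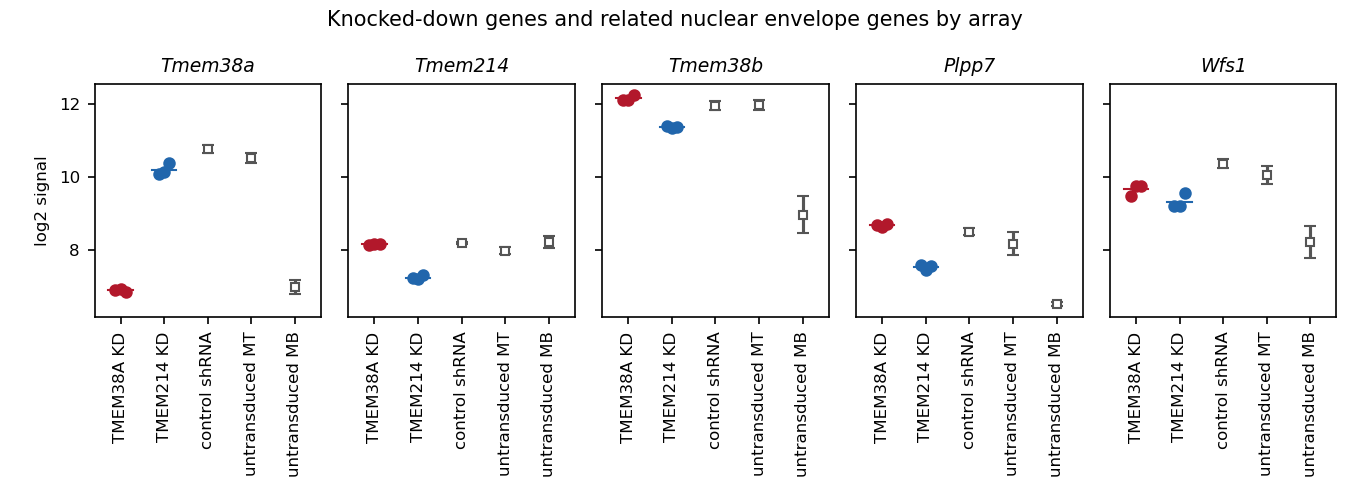
Log2 signal of Tmem38a, Tmem214, Tmem38b, Plpp7 and Wfs1 in TMEM38A KD and TMEM214 KD MTs (points, 3 arrays each; line, mean) and in control shRNA MTs, untransduced MTs and untransduced MBs (squares, mean ± SD, n = 3). Tmem38a sits near 6.9 in TMEM38A KD MTs and above 10 in TMEM214 KD MTs, while Tmem214, Tmem38b and Plpp7 are higher in TMEM38A KD MTs and Wfs1 overlaps.

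Of 13815 genes tested, 682 rose (4.94%) and 901 fell (6.52%) in TMEM38A KD MTs relative to TMEM214 KD MTs, 1583 in all (11.5%). Calls needed an adjusted p (limma, Benjamini-Hochberg over all genes) under 0.05 together with a log2 ratio beyond 0.5 on either side. Scanner values corrected for background (normexp) and then quantile normalized gave 956 higher and 1185 lower. With the same corrected values centred only on the median of each array (median scaling), the split was 276 higher and 2578 lower. Of these calls 9.67% were higher, against 43.1% in the deposited values. The median log2 ratio of all genes was −0.18 with median scaling and 0.013 with quantile normalized scanner values, against 0.0082 in the deposited log2 values. Above a log2 ratio of 1 in size, 138 genes rose and 307 fell (3.22% of all). Above 2, 27 rose and 53 fell. The groups of 3 did not overlap for any of the 1583 called genes, nor for 50.4% of all genes tested. Against control shRNA, 398 genes rose (2.88%) and 559 fell (4.05%) in TMEM38A KD MTs, 957 in all (6.93%). In TMEM214 KD MTs 519 rose (3.76%) and 419 fell (3.03%), 938 in all (6.79%). The median SE of a log2 ratio was 0.077.

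**Figure D2:**
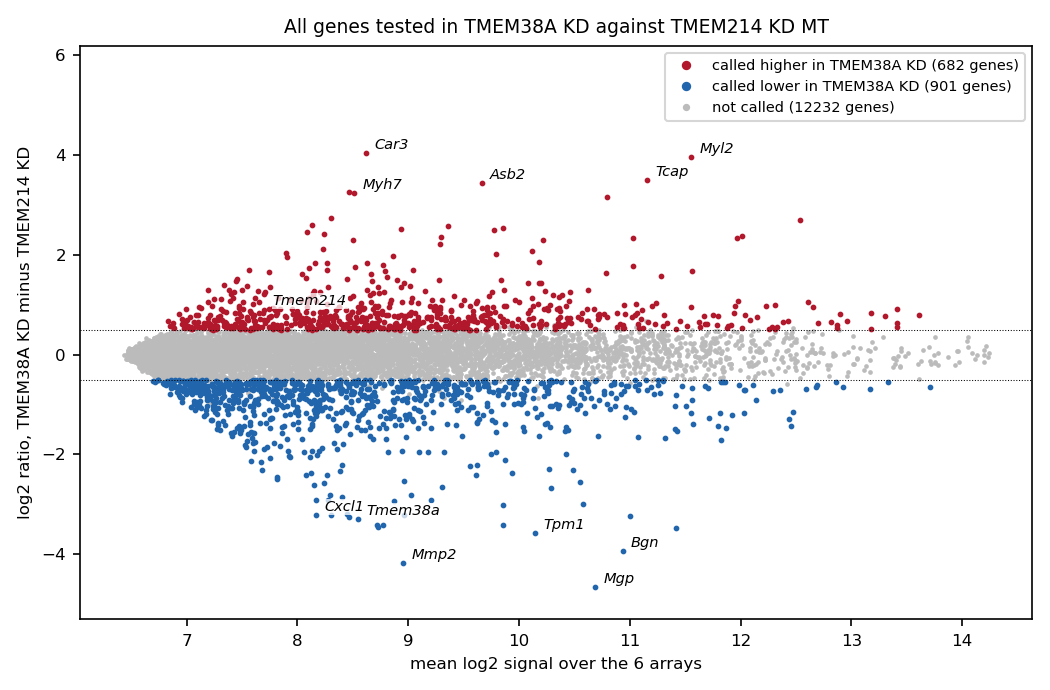
Log2 ratio of each of 13815 genes between TMEM38A KD and TMEM214 KD MTs against its mean log2 signal over the 6 arrays, with the 682 called higher in red, the 901 called lower in blue and the limits of 0.5 dotted. Muscle genes such as Myl2 and Tcap mark the top and matrix genes such as Mgp, Mmp2 and Bgn the bottom.

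Among 23 tested genes of the nuclear envelope and lamina, 2 were called, beside 11.5% of all genes, a share of the list no higher than that background. The nuclear pore gene Nup210 rose by 0.91 and Tmem201, which encodes the inner membrane protein SAMP1, by 0.50, while the lamins and LINC complex genes were not called. The call of Tmem201 was lost without TMEM38A KD replicate 2 or TMEM214 KD replicate 1 or 3 (log2 ratio 0.46 to 0.49) and with median scaling, under which 1 gene of the list rose and 5 fell.

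The 12 largest rises were mostly genes of muscle fibres. Car3, the carbonic anhydrase of slow fibres, had 10.52, 10.69 and 10.71 in TMEM38A KD MTs, against 6.56, 6.60 and 6.65 in TMEM214 KD MTs. It was 16.4-fold higher (log2 ratio 4.04, SE 0.288, adjusted p = 1.33e-08), and 1 of 3 TMEM214 KD arrays lay above background, so this fold is a low estimate. Myl2 encodes the slow and ventricular regulatory light chain of myosin. It had 13.55, 13.58 and 13.45 in TMEM38A KD MTs, against 9.57, 9.45 and 9.70 in TMEM214 KD MTs, and was 15.5-fold higher (log2 ratio 3.96, SE 0.22, adjusted p = 5.38e-10). Tcap, the titin cap of the Z-disc, had 12.81, 12.86 and 13.04 in TMEM38A KD MTs, against 9.43, 9.55 and 9.24 in TMEM214 KD MTs (log2 ratio 3.50, SE 0.164, adjusted p = 5.38e-11), and its second probe gave 3.62. Each of these 3 genes lay in control shRNA MTs between the 2 lines, at 8.86, 10.78 and 11.77.

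Asb2, a muscle ubiquitin ligase subunit that targets filamins, had 11.40, 11.30 and 11.46 in TMEM38A KD MTs, against 8.11, 7.97 and 7.74 in TMEM214 KD MTs (log2 ratio 3.44, SE 0.121, adjusted p = 1.54e-12). Igfn1, a Z-disc protein of the immunoglobulin and fibronectin families, had 9.93, 10.20 and 10.14 in TMEM38A KD MTs, against 6.79, 6.92 and 6.79 in TMEM214 KD MTs (log2 ratio 3.26, SE 0.139, adjusted p = 1.76e-11). Myh7, the slow and cardiac myosin heavy chain, had 10.03, 10.09 and 10.26 in TMEM38A KD MTs, against 6.97, 6.89 and 6.82 in TMEM214 KD MTs (log2 ratio 3.23, SE 0.11, adjusted p = 1.07e-12). In control shRNA MTs Myh7 averaged 7.21, close to TMEM214 KD MTs, and against control it differed by 2.91 in TMEM38A KD MTs and −0.32 in TMEM214 KD MTs, where only TMEM38A KD MTs passed. Ckmt2, the mitochondrial creatine kinase of striated muscle, showed the same layout, with 9.69, 9.60 and 9.73 in TMEM38A KD MTs, against 6.94, 6.93 and 6.94 in TMEM214 KD MTs, and 7.03 in control shRNA MTs. The small heat shock gene Hspb6 followed, with 11.16, 11.11 and 11.11 in TMEM38A KD MTs, against 8.71, 8.54 and 8.52 in TMEM214 KD MTs, and 9.01 in control. For Fxyd6, a regulator of the sodium pump, the layout differed. It had 12.38, 12.37 and 12.37 in TMEM38A KD MTs, against 9.25, 9.16 and 9.23 in TMEM214 KD MTs, and at 11.46 the control level lay nearer TMEM38A KD MTs. Mb, the oxygen carrier myoglobin, had 13.93, 13.83 and 13.91 in TMEM38A KD MTs, against 11.17, 11.12 and 11.27 in TMEM214 KD MTs. Mybpc1, the slow myosin-binding protein C, had 9.43, 9.42 and 9.44 in TMEM38A KD MTs, against 6.81, 6.81 and 6.89 in TMEM214 KD MTs, and its probes gave log2 ratios from 0.11 to 2.60. Tceal5, of the transcription elongation factor A-like family, had 10.62, 10.76 and 10.57 in TMEM38A KD MTs, against 8.07, 8.04 and 8.10 in TMEM214 KD MTs. The groups of 3 did not overlap in these 9 genes, which was a condition for a place among the 12.

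The 12 largest falls were led by genes of the extracellular matrix. Mgp, the matrix Gla protein that holds back calcification, had 8.46, 8.43 and 8.19 in TMEM38A KD MTs, against 12.92, 13.02 and 13.11 in TMEM214 KD MTs. At 25.2-fold lower in TMEM38A KD MTs it was the largest change of all (log2 ratio −4.65, SE 0.328, adjusted p = 1.12e-08). Mmp2, a gelatin-degrading metalloprotease, had 6.85, 6.88 and 6.87 in TMEM38A KD MTs, against 10.94, 11.00 and 11.19 in TMEM214 KD MTs (log2 ratio −4.18, SE 0.286, adjusted p = 8.06e-09). The proteoglycan gene Bgn, for biglycan, had 9.03, 8.94 and 8.93 in TMEM38A KD MTs, against 12.81, 12.95 and 12.96 in TMEM214 KD MTs (log2 ratio −3.94, SE 0.135, adjusted p = 1.16e-12). Control shRNA MTs lay between the lines for all 3, at 11.52, 9.25 and 11.77, and each passed the test against control in both lines in opposite directions. Tmem38a itself was among the 12.

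Secreted regulators made up a second part of the falls, beside Cyp1b1 and Fn1. Igfbp7 and Igfbp4 encode proteins that bind insulin-like growth factors. Igfbp7 had 9.63, 9.62 and 9.79 in TMEM38A KD MTs, against 13.26, 13.25 and 12.97 in TMEM214 KD MTs, and Igfbp4 7.14, 7.06 and 7.00 in TMEM38A KD MTs, against 10.51, 10.52 and 10.41 in TMEM214 KD MTs. Ccn4, a matricellular protein induced by Wnt signals, had 8.07, 8.17 and 8.19 in TMEM38A KD MTs, against 11.65, 11.59 and 11.45 in TMEM214 KD MTs. Cyp1b1, a cytochrome P450 found in mesenchymal cells, had 6.87, 6.80 and 6.85 in TMEM38A KD MTs, against 10.22, 10.09 and 9.94 in TMEM214 KD MTs. Fn1, for fibronectin, had 9.20, 9.42 and 9.52 in TMEM38A KD MTs, against 12.61, 12.61 and 12.64 in TMEM214 KD MTs, and its 4 probes gave log2 ratios from −3.24 to −0.27. The probe with the smallest ratio averaged 6.74 in TMEM38A KD MTs and 7.01 in TMEM214 KD MTs, near background. The collagen gene Col3a1, the membrane coat gene Cav1 and the tropomyosin gene Tpm1 completed the list. Col3a1 is taken up below with the matrix genes, and Cav1 and Tpm1 with the actin cytoskeleton.

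**Figure D3:**
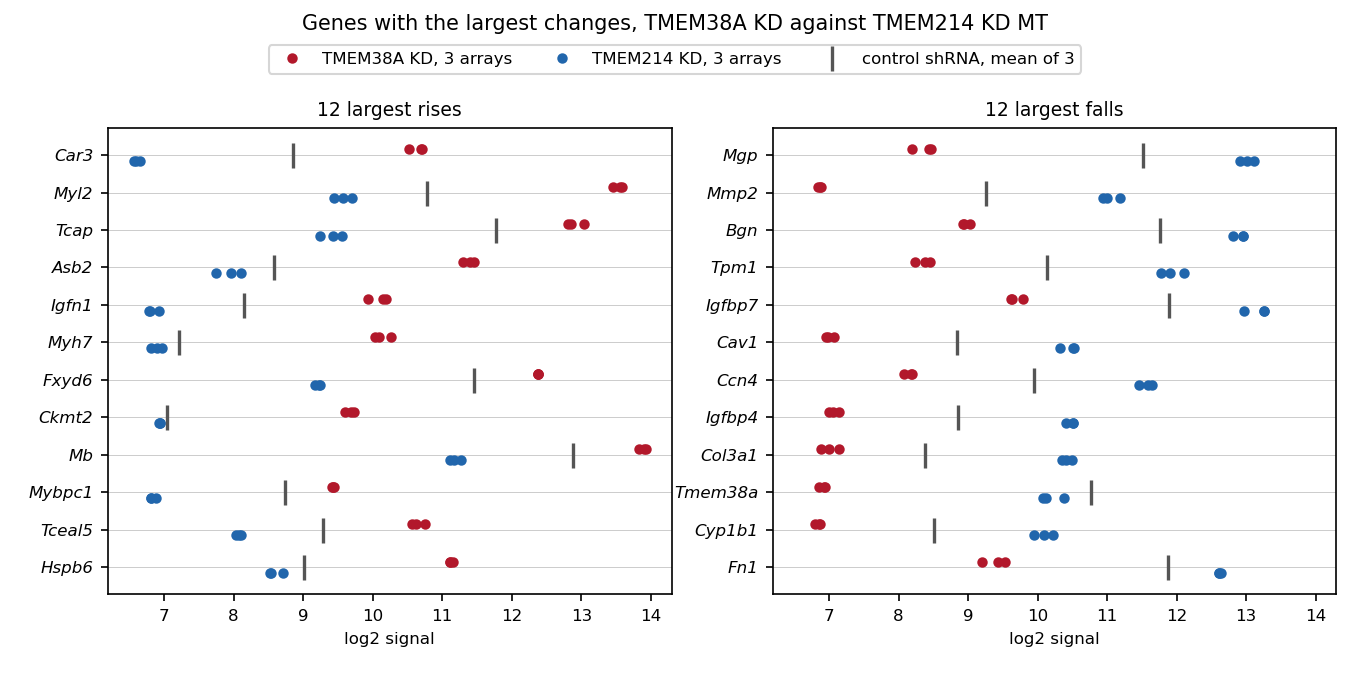
Log2 signal of the 12 genes with the largest rises and the 12 with the largest falls, with the 3 TMEM38A KD arrays in red, the 3 TMEM214 KD arrays in blue and the mean of control shRNA MTs as a bar. The replicates lie close together in every gene, and the control bar lies between the lines in all genes shown except Tmem38a, where it lies above both.

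Thick filament genes were mostly higher. Of 14 tested, 8 rose and 1 fell, beside 4.94% and 6.52% of all genes, with a median log2 ratio of 0.89 beside 0.0082 for all genes. Against control, 5 of the 14 rose and 2 fell in TMEM38A KD MTs, and none rose and 8 fell in TMEM214 KD MTs. The neonatal heavy chain gene Myh8 had 13.09, 13.15 and 13.17 in TMEM38A KD MTs, against 10.74, 10.89 and 10.73 in TMEM214 KD MTs (log2 ratio 2.35, SE 0.178, adjusted p = 2.68e-08). The fast heavy chain gene Myh1 had 12.55, 12.46 and 12.55 in TMEM38A KD MTs, against 11.50, 11.51 and 11.31 in TMEM214 KD MTs (log2 ratio 1.08, SE 0.153, adjusted p = 3.67e-05), and its second probe gave 0.34. Myh4, the fastest of the heavy chains, went the other way, with 7.59, 7.45 and 7.49 in TMEM38A KD MTs, against 9.39, 9.34 and 9.19 in TMEM214 KD MTs (log2 ratio −1.80, SE 0.25, adjusted p = 3.01e-05). In control shRNA MTs Myh4 averaged 10.62, above both lines, and it differed from control by −3.11 in TMEM38A KD MTs and −1.31 in TMEM214 KD MTs. The myomesin genes Myom1 and Myom3, which crosslink myosin at the M-band, rose by 1.05 and 0.96, while the light chain genes Myl1 and Myl4 gave 0.04 and 0.16 and were not called. Myosin heavy chain genes are close copies of each other, and whether a probe also binds the RNA of a neighbour was not tested.

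Myh1, Myh4 and Myh8 lie together in a cluster on chromosome 11, and their promoters are shown because these neighbours changed in opposite directions. Each stretch runs from 250 bases before to 50 bases after the start of the gene (RefSeq, GRCm38.p6), and capitals mark TATTTATA, letters that also occur within sites bound by MEF2 factors. Myh8 lies at chr11:67276874-67277173, plus strand, Myh1 at chr11:67199852-67200151, plus strand and Myh4 at chr11:67237562-67237861, plus strand.
Myh8: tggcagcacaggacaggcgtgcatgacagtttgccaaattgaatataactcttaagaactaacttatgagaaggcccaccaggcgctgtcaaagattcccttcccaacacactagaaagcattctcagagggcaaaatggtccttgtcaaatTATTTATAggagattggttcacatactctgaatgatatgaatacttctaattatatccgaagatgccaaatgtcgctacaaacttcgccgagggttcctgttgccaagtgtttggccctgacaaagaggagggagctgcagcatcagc
Myh1: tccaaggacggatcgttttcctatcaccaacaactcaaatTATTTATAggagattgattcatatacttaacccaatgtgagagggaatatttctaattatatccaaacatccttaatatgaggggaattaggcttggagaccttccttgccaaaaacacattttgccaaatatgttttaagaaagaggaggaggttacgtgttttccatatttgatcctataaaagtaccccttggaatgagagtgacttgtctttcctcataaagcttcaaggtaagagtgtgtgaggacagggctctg
Myh4: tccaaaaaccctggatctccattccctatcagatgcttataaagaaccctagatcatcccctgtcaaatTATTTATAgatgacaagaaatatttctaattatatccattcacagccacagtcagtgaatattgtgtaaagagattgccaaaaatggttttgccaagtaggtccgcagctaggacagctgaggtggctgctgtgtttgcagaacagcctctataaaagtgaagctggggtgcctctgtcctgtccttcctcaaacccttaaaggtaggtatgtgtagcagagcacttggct
On either strand, TATTTATA was found in 1.19% of 14058 promoters of this length and for 1.49% of 11110 genes, and in these 3 of the 13 thick filament genes with a promoter. Counted from the start, the letters begin at base −98 in Myh8, −210 in Myh1 and −181 in Myh4. They were therefore present in the promoters of 2 genes that rose and of 1 that fell. The sequence is a part of CTATTTATA, which was also looked for, and it was chosen from 21 short sequences after the counts were seen.

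Slow and cardiac genes, a list drawn up after values had been seen, held 20 tested members, of which 15 rose and 1 fell, with a median log2 ratio of 1.79. Beside them, 4.94% of all genes rose and 6.52% fell. Because of that choice the counts of this list, and of the fast list below, are no independent evidence. Among them the cardiac heavy chain gene Myh6 rose by 2.46, the fatty acid carrier gene Fabp3 by 1.78 and Tpm3, the slow tropomyosin, by 1.68. Of 6 probes for Tpm3, 5 gave ratios from 1.48 to 1.92 and 1 gave −1.06. The slow troponin genes Tnnt1 and Tnni1 rose by 0.80 and 0.56, while Tnnc1, Myl3 and Myoz2 gave −0.15, −0.29 and −0.10 and were not called. Casq2, the calcium store protein of slow and cardiac reticulum, was the member that fell, with 10.39, 10.25 and 10.20 in TMEM38A KD MTs, against 11.29, 11.24 and 11.58 in TMEM214 KD MTs (log2 ratio −1.09, SE 0.153, adjusted p = 3.46e-05). Fast fibre genes, listed in the same way, held 18 tested members, of which 7 rose and 3 fell, with a median of 0.47 (4 rose with median scaling). Against control, 11 slow and cardiac genes rose and 3 fell in TMEM38A KD MTs, and none rose and 10 fell in TMEM214 KD MTs. For the fast genes these counts were 0 and 3 in TMEM38A KD MTs, and 1 and 10 in TMEM214 KD MTs.

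In the thin filament, 9 of 17 tested genes rose and 1 fell (median 0.54), beside 4.94% and 6.52% of all genes. Nrap, which helps to lay down new sarcomeres, had 10.87, 10.89 and 10.87 in TMEM38A KD MTs, against 9.63, 9.66 and 9.49 in TMEM214 KD MTs (log2 ratio 1.28, SE 0.0856, adjusted p = 5.77e-09). Tmod1, which caps actin filaments, rose by 0.97, the β-tropomyosin gene Tpm2 by 0.84 and the cardiac actin gene Actc1 by 0.63. The skeletal actin gene Acta1 gave 0.04 and was not called. At the Z-disc and costamere, 8 of 23 rose and 3 fell (median 0.34), beside the same shares of all genes. Actn2, the α-actinin that crosslinks actin at the Z-disc, had 13.09, 13.21 and 13.31 in TMEM38A KD MTs, against 10.71, 10.93 and 10.83 in TMEM214 KD MTs (log2 ratio 2.38, SE 0.0973, adjusted p = 1e-11), and its 3 probes gave 0.18, 2.38 and 2.80. The giant spring gene Ttn had 12.66, 12.60 and 12.88 in TMEM38A KD MTs, against 11.58, 11.73 and 11.92 in TMEM214 KD MTs (log2 ratio 0.97, SE 0.214, adjusted p = 0.00232), with 12 probes between 0.054 and 1.19. Myot, a Z-disc crosslinker, rose by 1.13. The 3 that fell were the stretch-responsive genes Ankrd2 and Ankrd1 and the fast α-actinin gene Actn3, by −0.87, −0.56 and −0.55. With median scaling 5 thin filament and 5 Z-disc genes rose, and the calls of Tmod1, Actc1 and Ttn were lost. Those of Actc1 (0.46) and Ttn (0.43) were also lost with the mean of kept probes.

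Calcium handling in the sarcoplasmic reticulum, where TMEM38A works, was represented by 26 tested genes, of which 11 rose and 4 fell (median 0.47). Over all genes 4.94% rose and 6.52% fell. Of the 4 calcium genes that fell, 1 was Tmem38a itself and 1 Casq2. Pvalb, the calcium buffer of fast fibres, had 11.06, 11.01 and 10.99 in TMEM38A KD MTs, against 8.55, 8.47 and 8.54 in TMEM214 KD MTs (log2 ratio 2.50, SE 0.505, adjusted p = 0.0011), and against control neither line passed. Stim1 and Orai1 form the pair that refills the store from outside. Stim1 had 9.23, 9.28 and 9.27 in TMEM38A KD MTs, against 8.05, 8.03 and 8.08 in TMEM214 KD MTs (log2 ratio 1.21, SE 0.107, adjusted p = 1.81e-07), and Orai1 9.40, 9.35 and 9.48 in TMEM38A KD MTs, against 8.62, 8.65 and 8.52 in TMEM214 KD MTs (log2 ratio 0.81, SE 0.139, adjusted p = 0.000239). The calcium pump genes Atp2a1 and Atp2a2 rose by 0.77 and 0.91, Srl, for the lumenal protein sarcalumenin, by 1.01, and Asph, whose products include junctin, by 1.05. The 13 probes of Asph ran from −0.26 to 1.05, and the 3 of Srl from 0.22 to 1.15. Of the release channels, Ryr3 rose by 0.57 and Ryr1 gave 0.45, below the limit of 0.5, while Itpr3 and Itpr2, the inositol trisphosphate receptors, fell, with log2 ratios of −0.81 and −0.68. A second probe of Itpr2 gave −0.0073, and the 3 probes of Ryr3 ran from −0.074 to 0.57. Casq1, the fast calsequestrin, gave 0.57 and was not called (adjusted p = 0.0764). Against control none of the 26 rose in either line, and 3 fell in TMEM38A KD MTs and 13 in TMEM214 KD MTs. With median scaling the counts in the direct comparison were 6 higher and 5 lower, with a median of 0.11.

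Metabolic genes of muscle showed no falls. Of 19 tested, 14 rose, beside 4.94% of all genes, with a median log2 ratio of 0.80. Cox7a1, the heart and muscle subunit of cytochrome oxidase, had 9.98, 9.92 and 9.64 in TMEM38A KD MTs, against 7.89, 7.81 and 7.92 in TMEM214 KD MTs (log2 ratio 1.97, SE 0.256, adjusted p = 1.42e-05). Fabp3 had 11.94, 11.88 and 11.93 in TMEM38A KD MTs, against 10.02, 10.16 and 10.22 in TMEM214 KD MTs (log2 ratio 1.78, SE 0.183, adjusted p = 9.77e-07), and the creatine kinase gene Ckm 11.99, 12.07 and 12.18 in TMEM38A KD MTs, against 10.58, 10.52 and 10.37 in TMEM214 KD MTs (log2 ratio 1.59, SE 0.138, adjusted p = 1.47e-07). The glycogen and glycolysis genes Pygm, Aldoa and Pfkm rose too, by 1.23, 1.00 and 0.81. Against control, 7 of the 19 rose in TMEM38A KD MTs and 9 fell in TMEM214 KD MTs. Oxidative phosphorylation genes that all tissues use gave 10 rises and no fall among 20 (median 0.49), beside 4.94% and 6.52% of all genes. Uqcrc1, a core subunit of complex III, had 11.49, 11.52 and 11.68 in TMEM38A KD MTs, against 10.59, 10.58 and 10.46 in TMEM214 KD MTs (log2 ratio 1.02, SE 0.136, adjusted p = 1.89e-05). Cyc1, Ndufv1 and Ndufa4 rose by 0.81, 0.70 and 0.67, and Ppargc1a, the coactivator that drives mitochondrial genes, by 0.64. In this list 4 genes rose against control in TMEM38A KD MTs and none were called in TMEM214 KD MTs. With median scaling the rises numbered 9 for muscle metabolism and 2 for oxidative phosphorylation, and the calls of Cyc1, Ndufv1 and Ndufa4 were lost.

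At the neuromuscular junction, 3 of 13 tested genes rose and 1 fell, beside 4.94% and 6.52% of all genes. Chrne, the adult ε subunit of the acetylcholine receptor, had 8.91, 8.94 and 8.91 in TMEM38A KD MTs, against 6.92, 6.80 and 6.91 in TMEM214 KD MTs (log2 ratio 2.04, SE 0.0685, adjusted p = 1e-12), and 7.23 in control shRNA MTs. The fetal subunit gene Chrng gave −0.18 and was not called. Musk, the receptor kinase that gathers the receptors, had 8.45, 8.40 and 8.38 in TMEM38A KD MTs, against 7.66, 7.43 and 7.70 in TMEM214 KD MTs (log2 ratio 0.82, SE 0.0852, adjusted p = 1.19e-06). Ache, for acetylcholinesterase, was above background in TMEM38A KD MTs only and at least 1.81-fold higher there (adjusted p = 1.66e-07). Such a bound sets the bright group against the lowest signals that lie above background. Agrn, the organiser of the junction that also sits in the basement membrane, fell, with 8.69, 8.82 and 8.88 in TMEM38A KD MTs, against 9.84, 9.81 and 9.71 in TMEM214 KD MTs (log2 ratio −0.99, SE 0.131, adjusted p = 1.71e-05).

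Among the factors that drive myogenesis the directions were mixed, with 3 of 9 tested genes higher and 1 lower, beside 4.94% and 6.52% of all genes. Mef2c had 11.71, 11.72 and 11.83 in TMEM38A KD MTs, against 10.76, 10.75 and 10.64 in TMEM214 KD MTs (log2 ratio 1.04, SE 0.107, adjusted p = 1.02e-06), while control shRNA MTs, at 12.29, lay above both lines. The 5 probes of Mef2c ran from −0.023 to 1.49. Myod1 and Myf6 rose by 0.61 and 0.62, a call that Myod1 lost with median scaling. Myog fell, with 10.51, 10.47 and 10.59 in TMEM38A KD MTs, against 11.29, 11.24 and 11.40 in TMEM214 KD MTs (log2 ratio −0.79, SE 0.16, adjusted p = 0.00114), and against control it differed by −0.66 in TMEM38A KD MTs and 0.13 in TMEM214 KD MTs. Of 11 inhibitors of myogenesis tested, 4 fell and none rose. The Snail family repressors Snai2 and Snai1 fell, with log2 ratios of −1.37 and −1.07, as did Id1, which ties up the partners of MyoD, at −0.90. A second probe of Snai1 gave −0.049. Snai2 had 7.01, 7.08 and 6.99 in TMEM38A KD MTs, against 8.42, 8.43 and 8.34 in TMEM214 KD MTs. Twist2 was above background in TMEM214 KD MTs only, and at least 1.62-fold lower in TMEM38A KD MTs (adjusted p = 5.71e-06). Myoblast fusion and repair genes included 1 call among 11 tested, that of Cav1, with the fusion gene Mymk at −0.40 (not called). Of all myotube markers 11 of 12 were tested and all 11 were above background in every one of the 6 arrays.

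**Figure D4:**
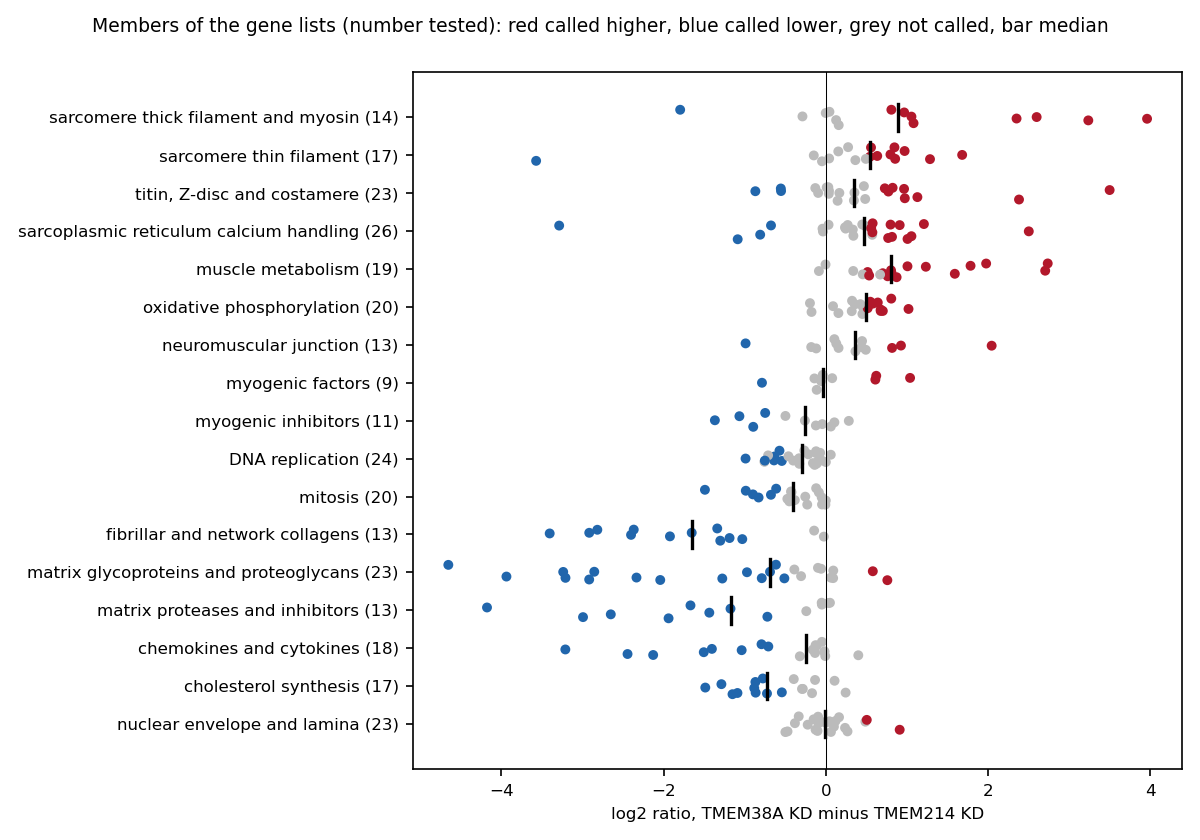
Log2 ratio between TMEM38A KD and TMEM214 KD MTs of every tested member of the gene lists, with the number tested in brackets and the median as a black bar. Contractile and metabolic lists lie mostly to the right, and collagens, proteases, matrix glycoproteins and cholesterol synthesis to the left.

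Extracellular matrix genes fell together. Of 13 collagen genes tested, 11 fell and none rose, with a median log2 ratio of −1.65, beside 6.52% of all genes. Col3a1 had 7.15, 6.88 and 7.00 in TMEM38A KD MTs, against 10.41, 10.49 and 10.35 in TMEM214 KD MTs (log2 ratio −3.40, SE 0.403, adjusted p = 5.04e-06), and its second probe gave −1.08. The basement membrane gene Col18a1 had 8.49, 8.43 and 8.32 in TMEM38A KD MTs, against 10.81, 10.86 and 10.77 in TMEM214 KD MTs (log2 ratio −2.40, SE 0.105, adjusted p = 2.41e-11). Col6a1, Col8a1 and Col4a1 fell, with log2 ratios of −2.92, −2.82 and −1.92. Against control, 9 of the 13 fell in TMEM38A KD MTs and 11 rose in TMEM214 KD MTs. Of 23 matrix glycoproteins and proteoglycans, 14 fell and 2 rose (median −0.69). Thbs2, a thrombospondin, had 6.74, 6.70 and 6.66 in TMEM38A KD MTs, against 9.87, 9.91 and 9.94 in TMEM214 KD MTs (log2 ratio −3.21, SE 0.15, adjusted p = 5.14e-11). Those that rose were the laminin genes Lama2 and Lamc1, by 0.76 and 0.58, though a second probe of Lama2 gave 0.055. Lama2 encodes the laminin chain of the muscle basement membrane. Among 13 proteases and inhibitors, 8 fell and none rose (median −1.18), with Timp1 at 9.19, 9.09 and 8.96 in TMEM38A KD MTs, against 11.99, 12.05 and 12.18 in TMEM214 KD MTs. Timp3 and Plat, the tissue plasminogen activator, fell, with log2 ratios of −2.65 and −1.94.

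Markers of other cell types were measured beside the matrix genes. Over all genes, beside the lists of this paragraph, 4.94% rose and 6.52% fell. Of 9 tested fibroblast markers, 6 fell and none rose (median −1.30), and 4 of the 6, Dcn, Col1a1, Col3a1 and Fbln1, encode matrix proteins themselves. The summed signal of the list, on a linear scale, was 984 to 1025 on the TMEM38A KD arrays and 3553 to 3662 on the TMEM214 KD arrays. Dcn had 6.84, 6.85 and 6.76 in TMEM38A KD MTs, against 9.70, 9.76 and 9.74 in TMEM214 KD MTs, with 3 probes from −2.92 to −0.025, and Pdgfrb, a receptor of fibroblasts and pericytes, 6.75, 6.68 and 6.86 in TMEM38A KD MTs, against 8.19, 8.06 and 8.31 in TMEM214 KD MTs. The defining receptor gene Pdgfra gave −0.11 and was not called, and Dpt was not above background on any of the 6 arrays. Of the smooth muscle markers 3 of 7 fell, of which Actg2 had 7.64, 7.61 and 7.61 in TMEM38A KD MTs, against 10.41, 10.45 and 10.41 in TMEM214 KD MTs, while the defining gene Acta2 gave 0.17 and was not called. The summed signal of this list was 21770 to 23090 in TMEM38A KD MTs and 21420 to 22260 in TMEM214 KD MTs. None of the adipocyte (4 tested), osteoblast and cartilage (7), macrophage (5) or endothelial (6) markers was called. The part of other cells in the matrix result was not tested.

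The actin cytoskeleton and caveola genes were listed after values had been seen and so are no independent evidence. They included 14 falls and no rise among 22 tested (median −1.03), beside 6.52% and 4.94% of all genes. Tpm1, a tropomyosin made in muscle and non-muscle forms, had 8.45, 8.38 and 8.24 in TMEM38A KD MTs, against 11.77, 11.91 and 12.10 in TMEM214 KD MTs (log2 ratio −3.57, SE 0.211, adjusted p = 1.24e-09), and its second probe gave −2.94. Tpm4, a non-muscle tropomyosin, had 9.02, 8.93 and 8.91 in TMEM38A KD MTs, against 11.57, 11.52 and 11.77 in TMEM214 KD MTs (log2 ratio −2.67, SE 0.153, adjusted p = 8.25e-10), with other probes at −1.48 and 0.30. Thus 2 tropomyosin genes fell where Tpm2 and Tpm3 rose. Cav1, the coat protein of caveolae outside muscle, had 6.98, 6.96 and 7.07 in TMEM38A KD MTs, against 10.52, 10.51 and 10.31 in TMEM214 KD MTs (log2 ratio −3.45, SE 0.224, adjusted p = 4.27e-09), while Cav3, the muscle form, gave 0.00 and was not called. Caldesmon (Cald1), synaptopodin (Synpo) and filamin A (Flna) fell, with log2 ratios of −2.41, −2.53 and −1.77. Against control, 16 of the 22 rose in TMEM214 KD MTs and none fell, whereas in TMEM38A KD MTs 6 fell and 1 rose.

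Of 18 chemokine and cytokine genes tested, 8 fell and none rose in TMEM38A KD MTs relative to TMEM214 KD MTs (median −0.24), and 10 were not called. Cxcl1, which draws neutrophils, had 6.53, 6.59 and 6.56 in TMEM38A KD MTs, against 9.82, 9.73 and 9.76 in TMEM214 KD MTs, and 6.64 in control shRNA MTs. It was not above background on any TMEM38A KD array and at least 9.01-fold lower there (adjusted p = 4.62e-13). Cxcl12, which guides muscle precursor cells, had 6.66, 6.59 and 6.51 in TMEM38A KD MTs, against 9.06, 9.10 and 8.95 in TMEM214 KD MTs (log2 ratio −2.45, SE 0.176, adjusted p = 1.45e-08). Ccl7 was at least 4.13-fold lower (adjusted p = 1.34e-06), and Ccl2, with 6.55, 6.50 and 6.61 in TMEM38A KD MTs, against 8.13, 7.95 and 8.08 in TMEM214 KD MTs, stood at 6.49 in control. Against control, 7 of the 18 rose in TMEM214 KD MTs and 1 fell, while in TMEM38A KD MTs none rose and 1 fell. In the interferon and antigen presentation list 5 of 24 fell, beside 6.52% of all genes, and none rose (2 fell with the mean of kept probes). Ifitm1 and Ifitm3, which block virus entry, fell, with log2 ratios of −2.55 and −2.37. Ifitm1 had 9.33, 9.30 and 9.19 in TMEM38A KD MTs, against 11.68, 11.83 and 11.96 in TMEM214 KD MTs, and with 11.65 control shRNA MTs lay with TMEM214 KD MTs. Of its 4 probes the range was −2.55 to 0.040.

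Cholesterol synthesis genes fell in TMEM38A KD MTs relative to both TMEM214 KD and control MTs. Of 17 tested, 10 fell and none rose in the direct comparison (median −0.73), beside 6.52% and 4.94% of all genes. Against control, 8 fell in TMEM38A KD MTs and 1 in TMEM214 KD MTs. Nsdhl, a late enzyme of the pathway, had 7.41, 7.30 and 7.38 in TMEM38A KD MTs, against 8.73, 8.85 and 8.98 in TMEM214 KD MTs (log2 ratio −1.49, SE 0.23, adjusted p = 9.02e-05), and 8.72 in control shRNA MTs. Sqle, which makes squalene epoxide, had 8.87, 8.96 and 9.16 in TMEM38A KD MTs, against 10.21, 10.29 and 10.35 in TMEM214 KD MTs (log2 ratio −1.29, SE 0.223, adjusted p = 0.000277). Cyp51, which removes a methyl group from lanosterol, had 8.66, 8.50 and 8.79 in TMEM38A KD MTs, against 9.74, 9.77 and 9.90 in TMEM214 KD MTs (log2 ratio −1.15, SE 0.233, adjusted p = 0.00114). In all 3 the TMEM214 KD arrays lay near the control mean, of 9.88 for Sqle and 9.97 for Cyp51. Fdps, which makes farnesyl diphosphate, had 10.04, 10.02 and 9.87 in TMEM38A KD MTs, against 11.10, 10.96 and 11.14 in TMEM214 KD MTs (log2 ratio −1.09, SE 0.327, adjusted p = 0.0193), and this call was lost when TMEM38A KD replicate 3 or TMEM214 KD replicate 1 or 3 was left out (adjusted p = 0.0549 to 0.0631). Srebf2, the factor that switches the pathway on, gave 0.24 and was not called.

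Promoters of 2 of these genes are shown because the group fell together, again from 250 bases before to 50 after the start, with CCAAT in capitals on either strand (ATTGG on the other). Nsdhl lies at chrX:72918271-72918570, plus strand, and Cyp51 at chr5:4104648-4104947, minus strand.
Nsdhl: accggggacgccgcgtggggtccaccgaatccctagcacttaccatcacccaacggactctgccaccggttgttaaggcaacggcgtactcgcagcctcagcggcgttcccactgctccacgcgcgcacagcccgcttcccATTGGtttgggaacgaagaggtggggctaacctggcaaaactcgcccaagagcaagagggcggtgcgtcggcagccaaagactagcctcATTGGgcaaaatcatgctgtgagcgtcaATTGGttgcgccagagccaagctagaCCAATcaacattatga
Cyp51: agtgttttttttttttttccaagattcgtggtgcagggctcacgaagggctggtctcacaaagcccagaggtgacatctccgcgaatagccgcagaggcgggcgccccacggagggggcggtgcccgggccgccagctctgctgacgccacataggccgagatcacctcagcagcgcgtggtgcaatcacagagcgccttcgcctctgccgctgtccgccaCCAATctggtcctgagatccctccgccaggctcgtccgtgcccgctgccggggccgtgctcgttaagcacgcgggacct
Nsdhl held 4 matches and Cyp51 held 1. Of the 17 tested genes 14 had a promoter in the table, and all 14 held CCAAT, which was found in 37.4% of the 14058 promoters of this length and for 42.5% of the 11110 genes they belong to. The match did not set the called genes apart, as 7 of 7 called and 7 of 7 not called held it. Among collagen genes the letters were in 6 of 11. The letters were chosen after the counts were seen.

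Cell cycle genes fell in TMEM38A KD MTs where they were called. In DNA replication 6 of 24 fell and none rose (median −0.30), and in mitosis 6 of 20 fell and none rose (median −0.40), beside 6.52% of all genes that fell. With the mean of kept probes 3 and 4 of them fell, and with median scaling 14 and 12. Cenpa, the histone of the centromere, had 7.32, 7.23 and 7.22 in TMEM38A KD MTs, against 8.82, 8.77 and 8.67 in TMEM214 KD MTs (log2 ratio −1.49, SE 0.136, adjusted p = 2.54e-07), and averaged 12.36 in untransduced MBs. Its second probe gave 0.022. Uhrf1, which copies DNA methylation at replication, had 6.94, 6.97 and 7.16 in TMEM38A KD MTs, against 8.01, 8.05 and 7.97 in TMEM214 KD MTs (log2 ratio −0.99, SE 0.142, adjusted p = 4.08e-05), and averaged 11.07 in MBs. Ccnd1, the cyclin that takes cells out of G1, had 6.71, 6.77 and 6.78 in TMEM38A KD MTs, against 8.78, 8.65 and 8.51 in TMEM214 KD MTs (log2 ratio −1.90, SE 0.15, adjusted p = 4.61e-08), and averaged 12.27 in MBs. Cenpa, Uhrf1 and Ccnd1 averaged 8.29, 7.28 and 8.05 in untransduced MTs, and 7.45, 7.22 and 7.30 in control shRNA MTs. For Cenpa and Ccnd1 the untransduced MTs thus lay nearer to TMEM214 KD MTs, and for Uhrf1 nearer to TMEM38A KD MTs. Against control, 7 of the 20 mitosis genes rose in TMEM214 KD MTs and none were called in TMEM38A KD MTs. Myoblast markers moved with these lists. Of 8 tested, 2 fell (Ccnd1 and Vim; 5 with median scaling), with a summed linear signal of 6675 to 7108 on the TMEM38A KD arrays and 9995 to 11230 on the TMEM214 KD arrays. Myf5 was not above background on any of the 6 arrays. The summed signal of the myotube markers was 115200 to 119000 in TMEM38A KD MTs and 84220 to 89530 in TMEM214 KD MTs, a sum in which the brightest genes weigh most. Of the 11 tested myotube markers 4 rose, 1 fell (Myog) and 6 were not called (median 0.27). With median scaling 2 rose and 2 fell, and with the mean of kept probes 2 rose and 1 fell. The part of undifferentiated cells in these differences was not tested.

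Growth factor genes included both directions. Over all genes, beside the lists of this paragraph, 4.94% rose and 6.52% fell. In the TGF-β and BMP list 6 of 18 fell and 2 rose. Bmp4, a bone morphogenetic ligand, had 6.86, 6.85 and 6.87 in TMEM38A KD MTs, against 9.34, 9.27 and 9.24 in TMEM214 KD MTs (log2 ratio −2.42, SE 0.272, adjusted p = 2.83e-06), with a second probe at −0.34, and the receptor gene Tgfbr2 fell, with a log2 ratio of −1.25. The 4 probes of Tgfbr2 ran from −1.25 to 0.10, and its call was lost with their mean (−0.35). Fst, for follistatin, which binds myostatin and activins, rose, with 11.52, 11.60 and 11.69 in TMEM38A KD MTs, against 10.01, 10.15 and 9.72 in TMEM214 KD MTs (log2 ratio 1.64, SE 0.199, adjusted p = 6.41e-06). In the IGF and mTOR list 7 of 24 fell and 3 rose (none rose with median scaling), with the binding protein Igfbp2 at −1.07 and the stress-induced mTOR inhibitor Sesn1 at 0.85 (not called with median scaling). In the glycolysis and hypoxia list 3 of 21 fell and 1 rose, led by Ndrg1, with 6.93, 6.93 and 7.01 in TMEM38A KD MTs, against 9.41, 9.43 and 9.74 in TMEM214 KD MTs (log2 ratio −2.57, SE 0.197, adjusted p = 3.08e-08). Among reticulum stress genes 4 of 28 fell, beside 6.52% of all genes, and none rose. Casp4, the mouse counterpart of the caspase that TMEM214 binds in human cells, fell, with 6.73, 6.55 and 6.64 in TMEM38A KD MTs, against 7.41, 7.20 and 7.48 in TMEM214 KD MTs (log2 ratio −0.72, SE 0.0656, adjusted p = 2.43e-07). Its 3 probes ran from −0.72 to −0.058, and the call was lost with their mean (−0.48). Hspa5, the reticulum chaperone BiP, had 7.05, 7.18 and 7.27 in TMEM38A KD MTs, against 7.94, 8.09 and 8.17 in TMEM214 KD MTs (log2 ratio −0.90, SE 0.289, adjusted p = 0.0281), a call lost when any of 5 of the 6 arrays was left out (adjusted p = 0.0526 to 0.0879).

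A set of candidate genes followed at the nuclear edge was chosen in the study with these arrays in hand, and is no independent evidence. Of 8 tested, 4 fell and none rose, beside 6.52% and 4.94% of all genes. Besides Cxcl1, Vcam1, a cell adhesion molecule, had 7.09, 7.18 and 6.95 in TMEM38A KD MTs, against 8.71, 8.49 and 8.72 in TMEM214 KD MTs (log2 ratio −1.57, SE 0.131, adjusted p = 8.94e-08), and its second probe gave −0.15. Bdnf, a neurotrophin, had 6.81, 6.78 and 6.72 in TMEM38A KD MTs, against 7.73, 7.72 and 7.66 in TMEM214 KD MTs, and Nid1, which links laminin to collagen IV, 6.85, 6.90 and 6.84 in TMEM38A KD MTs, against 7.53, 7.61 and 7.82 in TMEM214 KD MTs. In control shRNA MTs Vcam1 averaged 7.15, Bdnf 7.14 and Nid1 7.10, nearer to TMEM38A KD than to TMEM214 KD MTs. In untransduced MTs Vcam1 averaged 8.40, Bdnf 7.41 and Nid1 7.79, nearer to TMEM214 KD than to TMEM38A KD MTs. Ptn, Msc, Ddr2 and Efna5 gave −0.31, −0.04, 0.09 and 0.28 and were not called. Ptn was called lower from scanner values with quantile normalization (−0.53, adjusted p = 0.0284) and with median scaling (−0.68, adjusted p = 0.000532), which made 5 of 8 lower. With the mean of kept probes 2 of 8 were lower, as Bdnf (4 probes from −0.94 to −0.0083) and Nid1 (2 probes, −0.79 and −0.17) lost their calls. Of 7 genes used as examples of repositioning, 4 rose (Ttn, Actc1, Myo18b and Ryr3) and Cdk14 fell (log2 ratio −1.11, with 4 probes from −1.11 to 0.052). None of the 7 was called with the mean of kept probes, and with median scaling none rose and 2 fell.

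To set both lines against normal myogenesis, each array was given a position along the difference between untransduced MTs and MBs, with 0 at the mean MB and 1 at the mean MT, over 3383 genes called between them. These 6 untransduced arrays belong to neither line. TMEM38A KD MTs lay at 1.06 ± 0.0022 and TMEM214 KD MTs at 0.905 ± 0.00057 (SD, n = 3 each), a difference of 0.153 with no overlap. A two-sided exact permutation test gave p = 0.1, the smallest that 3 against 3 allow. Control shRNA MTs lay at 1.07 ± 0.0090 and untransduced MTs at 1 ± 0.040. TMEM38A KD MTs thus overlapped neither TMEM214 KD MTs nor the control line, whose lowest array was at 1.065 against a highest of 1.060 in TMEM38A KD MTs. NET39 KD arrays lay at 0.893 to 0.927, a range that holds the TMEM214 KD arrays, and WFS1 KD arrays at 1.046 to 1.048. Mean scanner intensity was 172 to 289 on the untransduced arrays that set the axis and 301 to 533 on the shRNA arrays. Its part in the positions was not tested.

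Called genes were then set against the genes called between untransduced MTs and MBs. Of the 682 that rose in TMEM38A KD MTs, 330 also rose from MB to MT in untransduced cells (48.4%, 95% Wilson interval 44.7% to 52.1%), beside 11.5% of all genes. These 330 were 20.8% of the 1589 genes that rose in myogenesis. Another 45 of the 682 fell in myogenesis (6.598%, interval 4.97% to 8.72%), beside 13.0% of all genes. Of the 901 that fell, 366 also fell in myogenesis (40.6%, interval 37.5% to 43.9%). A further 182 rose in myogenesis (20.2%, interval 17.7% to 23.0%). The genes that fell therefore included members of both directions at above their shares among all genes. The intervals treat genes as independent, which they are not.

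**Figure D5:**
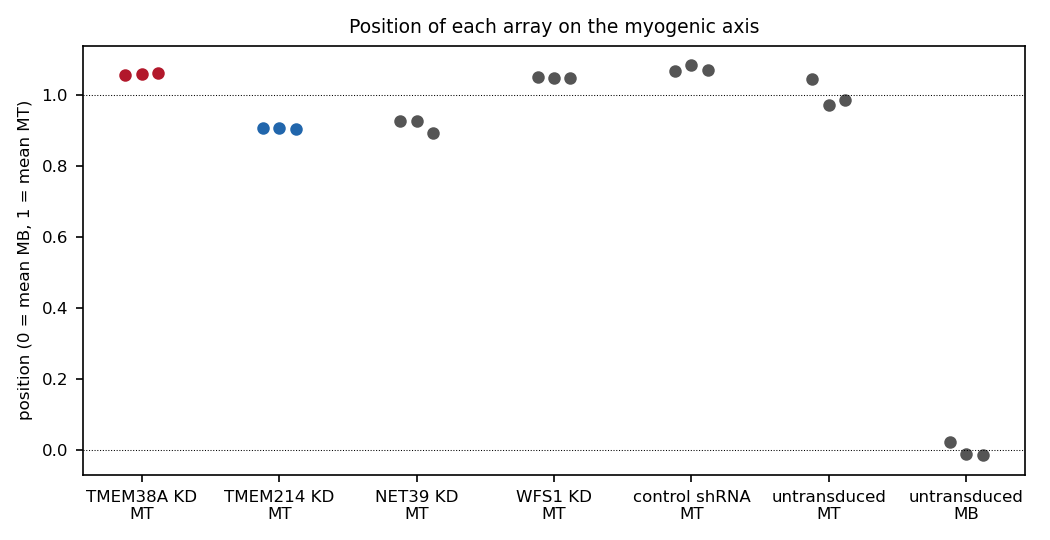
Position of each of the 21 arrays between the mean untransduced MB (0) and the mean untransduced MT (1), over 3383 genes called in untransduced MTs minus MBs. TMEM38A KD arrays lie at 1.056 to 1.060 and TMEM214 KD arrays at 0.9043 to 0.9055, with the arrays of the other groups shown beside them.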

How the data were processed

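RNA of 21 C2C12 samples, 3 per group, was hybridised to Illumina whole-genome mouse bead arrays. The authors deposited log2 values, quantile normalized between arrays by them, which were the main values. Background correction is not given in the sources used here, so a floor near background makes the ratios of dim genes too small. The authors also deposited scanner intensity values without normalization, which served as an alternative after normexp correction with an offset of 50. Their ranks within each array matched the log2 values (lowest rank correlation 1). Scanner columns name the control line as empty, whereas the labels name a control shRNA.

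A probe was kept where it exceeded a background level on at least 3 of the 21 arrays. That level lay above the mode of the log2 signals (bandwidth 0.01) by the normal quantile of the upper 0.05 tail times the spread below the mode. Of 45281 probes 28478 were kept. Gene symbols came from the platform annotation, with 34885 probes listing 1 symbol, 18 several and 10378 none. The brightest kept probe stood for a gene, which gave 13815 genes. Other probes of a named gene could give smaller ratios also where no range is printed, as for Col18a1 (−2.40 to −0.22) and Timp3 (−2.65 to −0.12). All 21 arrays entered 1 linear model in limma 3.58.1 (R 4.3.3), with each group given its own mean, in which the other 15 arrays only add to the shared estimate of the spread. P-values were from limma's moderated test with Benjamini-Hochberg adjustment over all 13815 genes. The limits for a call, 0.05 for the adjusted p and 0.5 for the size of the log2 ratio, are those of the study. Folds are 2 to the power of the log2 ratio. The number of arrays limits the precision. By the study's methods the 3 arrays of a group are biological replicates. The script was tested on simulated data.

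The comparison and gene lists were chosen with earlier results of these data known. The slow, fast and actin lists, and the 2 promoter sequences shown (of 21 looked for), were chosen after their values were seen. Genes named were Tmem38a, Tmem214, Tmem38b, Plpp7 and Wfs1, the 12 largest rises and falls whose groups did not overlap, up to 4 called members of each list by size, and the 8 candidate genes. Other list members were named after their values were seen. Promoters were from RefSeq (GRCm38.p6). Alternatives covered the starting values, scaling, arrays in the fit, probe filter, probe choice, test, threshold and each array left out. Comparisons of each line with control share the control arrays, so no overlap between them is given.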

Additional observations from a re-analysis of the deposited data

Results flagged for a closer look

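Against control shRNA MTs, 38 of the 138 named genes were called in opposite directions in the 2 lines, and were also called between them. The 2 control comparisons share the control arrays, and the difference itself is the direct limma contrast of TMEM38A KD minus TMEM214 KD MTs, whose log2 ratios follow. Of all 13815 genes tested 154 showed this layout, of which 46 were higher and 108 lower in TMEM38A KD MTs.

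Of the 38, 13 were higher in TMEM38A KD MTs than in control, and lower in TMEM214 KD MTs. They were Car3 (4.04), Myl2 (3.96), Tcap (3.50), Asb2 (3.44), Igfn1 (3.26), Fxyd6 (3.16), Mb (2.70), Mybpc1 (2.60), Tceal5 (2.58), Actn2 (2.38), Myh8 (2.35), Cox7a1 (1.97) and Ckm (1.59). Most of them encode proteins of the sarcomere or of energy supply in muscle. Named genes were picked by size of change and from lists by function. The make-up of the named genes, here and below, thus follows from that choice and is no independent evidence.

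The other 25 were lower in TMEM38A KD MTs than in control, and higher in TMEM214 KD MTs. Matrix genes were Mgp (−4.65), Bgn (−3.94), Col3a1 (−3.40), Thbs2 (−3.21), Dcn (−2.92), Col6a1 (−2.92), Col8a1 (−2.82), Col18a1 (−2.40) and the matricellular Ccn4 (−3.42). Proteases and their inhibitors were Mmp2 (−4.18), Timp3 (−2.65) and Plat (−1.94). Secreted regulators were Igfbp7 (−3.48), Igfbp4 (−3.41) and Cxcl12 (−2.45). Genes of the cytoskeleton and membrane were Tpm1 (−3.57), Cav1 (−3.45) and Actg2 (−2.81). Receptors were Pdgfrb (−1.43) and Tgfbr2 (−1.25), whose call was lost with the mean of its 4 probes (−0.35). The rest were Cyp1b1 (−3.25), Ndrg1 (−2.57), Ccnd1 (−1.90), Snai2 (−1.37) and Bnip3l (−1.22).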

How the results depend on the processing

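Across 19 alternative settings, 79 of 138 named genes, Tmem38a among them, held their call in every one. The main counts were 682 higher and 901 lower. With normexp-corrected scanner values the counts were 956 higher and 1185 lower after quantile normalization. Centred on the array median instead, those values gave 276 higher and 2578 lower of 13390 genes. With an adjusted p alone the deposited values gave 1855 higher and 1746 lower. At a log2 ratio above 1 they were 138 higher and 307 lower, and Tmem214 (0.90) no longer passed. Median scaling reversed Efna5 (−0.10, adjusted p = 0.697) and Wfs1 (−0.068, adjusted p = 0.826), neither of which was called. The cause was not tested. It also took the call from 12 named genes: Actc1, Ctsl, Cyc1, Fos, Myo18b, Myod1, Ndufa4, Ndufv1, Sesn1, Tmem201, Tmod1 and Ttn. Scanner values with either scaling added the call of Ptn. The mean of all kept probes gave 522 higher and 666 lower, and took the call from 18: Actc1, Bbc3, Bdnf, Casp4, Cdc20, Cdk14, Egr3, Gusb, H2-D1, H2-K1, Klf4, Lig1, Myo18b, Nid1, Pfkl, Tgfbr2, Ttn and Tyms. Leaving out 1 array gave 668 to 685 higher and 836 to 865 lower, a Tmem38a ratio of −3.34 to −3.20, a Tmem214 ratio of 0.88 to 0.94 and a difference in myogenic position of 0.151 to 0.153. It took the call from Eno1b, Fdps, Gadd45b, Hspa5, Map1lc3b, Pdia4, Pfkl, Rpl13a or Tmem201. Same-numbered arrays of the 2 lines did not deviate together (r = −0.10, −0.055 and −0.30 over genes), so the numbers do not pair them. With the replicate number as a block, 688 genes were higher and 913 lower, and no call of a named gene changed. A block for chip or scan was not run, since the headers used here name none. Signals near background bound what dim genes can show.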

Other observations

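Genes of oxidative defence changed in both directions, with 4 of 21 higher (2 with median scaling) and 4 lower in TMEM38A KD MTs relative to TMEM214 KD MTs. Over all genes 4.94% were higher and 6.52% lower. Gpx3, the secreted glutathione peroxidase, had log2 signals of 11.38, 11.36 and 11.37 in TMEM38A KD MTs, against 8.98, 9.07 and 9.15 in TMEM214 KD MTs (log2 ratio 2.30, SE 0.208, adjusted p = 2.26e-07). Gclm, which helps to make glutathione, had 8.51, 8.57 and 8.68 in TMEM38A KD MTs, against 7.58, 7.47 and 7.38 in TMEM214 KD MTs (log2 ratio 1.11, SE 0.0821, adjusted p = 2.15e-08). Mt1, a metal-binding metallothionein, had 11.80, 11.76 and 11.81 in TMEM38A KD MTs, against 13.08, 13.08 and 13.08 in TMEM214 KD MTs (log2 ratio −1.29, SE 0.252, adjusted p = 0.000846), and Gstm2, a glutathione transferase, 8.10, 7.83 and 7.75 in TMEM38A KD MTs, against 9.20, 9.20 and 9.21 in TMEM214 KD MTs (log2 ratio −1.31, SE 0.183, adjusted p = 3.16e-05). Of the glutathione peroxidase genes, Gpx1 fell where Gpx3 and Gpx4 rose, since Gpx1 gave −0.99, Gpx4 0.66 and Gpx3 2.30, and all 3 passed.

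Immediate early genes included 1 rise and 4 falls among 17. With the mean of kept probes 1 rose and 1 fell, and with median scaling none rose and 6 fell. Over all genes, beside this list and those below, 4.94% rose and 6.52% fell. Fos, a partner in the AP-1 factor, had 9.41, 9.45 and 9.48 in TMEM38A KD MTs, against 8.66, 8.60 and 8.53 in TMEM214 KD MTs (log2 ratio 0.85, SE 0.134, adjusted p = 0.000112), which lost its call under median scaling (0.49, adjusted p = 0.15), while Egr2 had 7.98, 7.76 and 7.80 in TMEM38A KD MTs, against 8.72, 8.60 and 8.87 in TMEM214 KD MTs (log2 ratio −0.88, SE 0.125, adjusted p = 3.49e-05). Against control, 5 of the 17 rose in TMEM38A KD MTs and 7 in TMEM214 KD MTs. Growth arrest genes of the Gadd45 family fell together, with Gadd45g, Gadd45a and Gadd45b at −1.16, −0.71 and −0.61, all called, though Gadd45b lost its call when any of 4 of the 6 arrays was left out (adjusted p = 0.0717 to 0.0976). Among p53 target genes 3 of 13 rose and 3 fell, with the cell death gene Bbc3 (PUMA) at 0.93 and Trp53inp1 at −0.78. With the mean of kept probes, or with median scaling, 1 of the 13 rose, and Bbc3 lost its call with that mean (0.36). In the list of lysosome and autophagy genes Bnip3l, which marks mitochondria for removal, fell, with 8.37, 8.34 and 8.39 in TMEM38A KD MTs, against 9.65, 9.71 and 9.39 in TMEM214 KD MTs (log2 ratio −1.22, SE 0.122, adjusted p = 7.64e-07), and 17 genes of the list were tested, of which 2 fell (4 with median scaling) and 1 rose. Of 16 tested Notch pathway and undifferentiated MB genes 3 fell (6 with median scaling) and none rose, namely Vcam1, Cxcr4 and Notch3 (−1.57, −0.94 and −0.67).

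Of 8 tested housekeeping genes 2 fell, Gusb and Rpl13a, with log2 ratios of −1.06 and −0.53. Gusb, with 4 probes from −1.06 to 0.12, lost its call with their mean (−0.36), and 4 of the 8 fell with median scaling. Probes of some genes differed in direction, as for Actb, whose 5 probes gave log2 ratios from −1.79 to 1.32. In 5 genes probes were called in opposite directions.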
